A study of Mus musculus with 15 samples.

Results

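Solute carriers are the largest class of membrane transporters, and 115 of the 8059 genes listed for mouse muscle stem cells carry a name of that series, Slc followed by a digit. Members were taken from the table by name alone. By their names 3 are not transporters: Slc4a1ap encodes an adaptor protein, Slc7a6os is the gene on the strand opposite to Slc7a6, and Slc9a3r1 encodes NHERF1, a scaffold that holds transporters at the membrane. They were counted as a group of their own. Muscle stem cells, or satellite cells, lie against muscle fibres in a resting state until tissue is damaged, and the series title concerns the stress response that tissue damage sets off in them. The 6 bulk groups used here were all PFA-fixed. T0 came from tissue labelled intact, and T15, T30, T60, T90 and T120 from tissue labelled dissociated, for which the protocols name collagenase and dispase. The labels give no unit for these times, which were taken as minutes. Of the 22 libraries, T30 and T90 have 3 each and every other time point has 4. The labels used here name no strain, genotype, age or sort for the bulk cells. Nothing says whether libraries came from separate animals, so p-values measure only the spread between these libraries, which may be technical. The other 9 samples, of single nuclei and single cells, were not analysed here.

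A solute carrier moves its substrate down a gradient or couples it to another ion, so the carriers in its membranes set which amino acids, sugars, metals and ions a cell can take up or release. Large neutral amino acids enter through Slc7a5 paired with Slc3a2 and feed mTORC1, the kinase complex that couples nutrients to growth. Small neutral amino acids are accumulated by Slc38a2 with sodium. Resting muscle stem cells are small and slow in metabolism, and nutrient uptake, glycolysis and mTORC1 activity are known to rise as they leave rest. The SLC25 family sits mostly in the inner mitochondrial membrane, where it exchanges ADP, ATP, phosphate and metabolites.

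Levels are in CPM, each count scaled to the library's total over the listed genes with TMM scaling, as mean ± SD over libraries, and per kb of exon where genes are compared with each other. A library held 2974294 to 10482407 counts over listed genes up to T30, and 8647622 to 27826437 from T60 on. Counts in exons of 6 long genes that muscle stem cells are not known to use gave a background density, which was 2.55 ± 1.09 CPM per kb at T0 (n = 4), 4.62 ± 2.94 at T30 (n = 3) and 0.0962 ± 0.0205 at T60 (n = 4). Taken over its exon length, that density equalled at least 50% of the T0 level in 40 of the 115 Slc genes and more than 100% in 5, with a median of 40.8% against 27.3% over all listed genes. At T60 the median for the Slc genes was 1.44%. Every comparison with T0 or T30 was therefore repeated with the background subtracted. The 6 genes had to pass the authors' filter on mean count, so they may be ones with high counts up to T30. The density may thus be too high in those libraries, and the subtraction too strong, which was not tested. All 10 satellite cell markers were listed, and their summed level was 4990 to 6330 CPM at T0 and 4890 to 6030 at T120. Markers of other cells were present too: of 7 endothelial markers 5 were listed, with a sum of 149 to 240 CPM at T0, 124 to 181 at T60 and 321 to 599 at T120. Of 7 smooth muscle and pericyte markers 5 were listed, and their sum went from 185 to 294 CPM at T0 to 452 to 640 at T120. Of 9 myofibre markers 6 were listed, at 404 to 593 CPM at T0, 189 to 257 at T60 and 169 to 404 at T120, and 4 of the 6 fell at T60. Of 7 fibro-adipogenic markers 4 were listed, at 1010 to 1730 CPM at T0 and 1130 to 1370 at T120. Of 7 immune markers only Cd68 was listed, at 9.44 to 11.9 CPM at T0 and 11.2 to 25.2 at T120. Their part in the results was not tested.

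**Figure D1:**
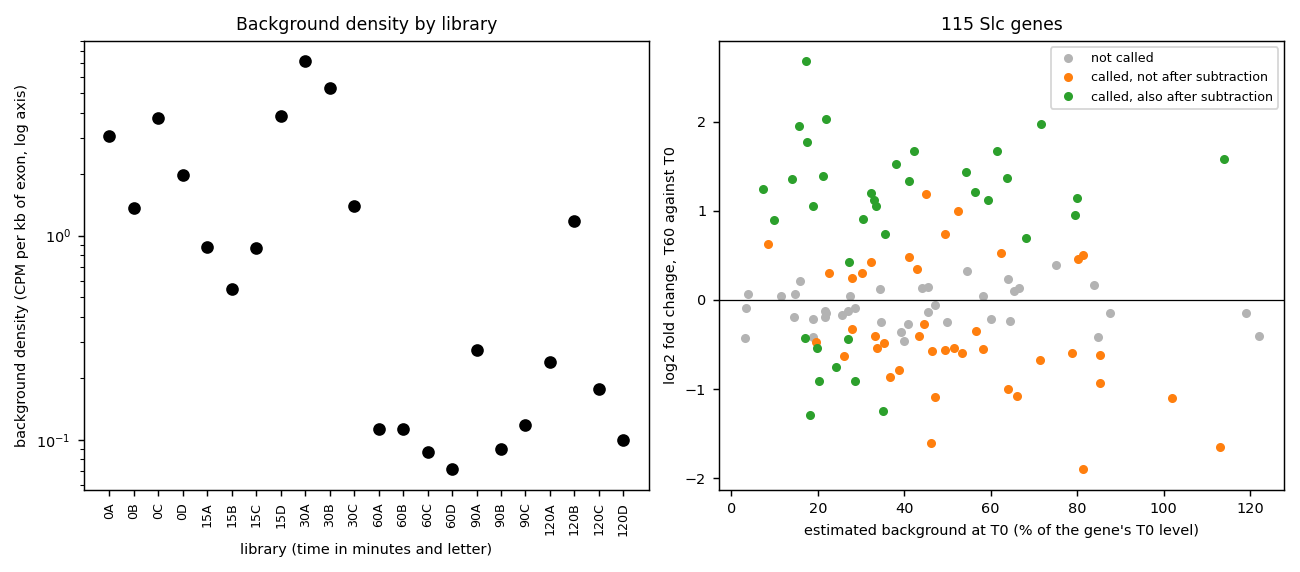
Left, background density of each of the 22 libraries in CPM per kb of exon on a log axis, in order of time. Right, for each of the 115 Slc genes, the estimated background at T0 as a percentage of its T0 level against its log2 fold change at T60 against T0, coloured by whether it was called and whether it was also called after subtraction. The libraries of T0 and T30 lie above those of T60, and called falls that were not called after subtraction lie mostly where the background share is high.

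Before subtraction of the background, nearly all of the Slc genes were called as changed within 2 hours, with similar numbers of rises and falls. At any time 103 of 115 were called (adjusted p under 0.05, edgeR), beside 85.7% of all listed genes. At T60 41 rose and 35 fell against T0, which is 66.1% of them beside 56.2% of all listed genes (27.9% up, 28.3% down). At T90 45 rose and 46 fell, beside 68.8% of all (33.8% up, 35% down), and at T120 45 rose and 47 fell, beside 76.8% of all (37.3% up, 39.5% down). These shares are near the background, so a call alone says little about the Slc genes. Their median log2 fold change at T120 was 0.03, against -0.08 for all listed genes. After subtraction of the background 38 of the 45 rises and 26 of the 47 falls at T120 were still called, and at T60 28 of the 41 rises and 8 of the 35 falls. In all, subtraction gave 30 rises and 12 falls at T60 (18.5% and 14.1% of all genes), 36 and 22 at T90 (25% and 20.7%) and 41 and 27 at T120 (30.4% and 25.9%). Rises then outnumbered falls at each of these times, as they did over all genes. After subtraction 68 Slc genes were called at any time, and the share of all genes in that test was not computed. The 5 comparisons with T0 share its libraries. In bulk RNA, fewer cells of a type and less RNA per cell cannot be told apart.

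**Figure D2:**
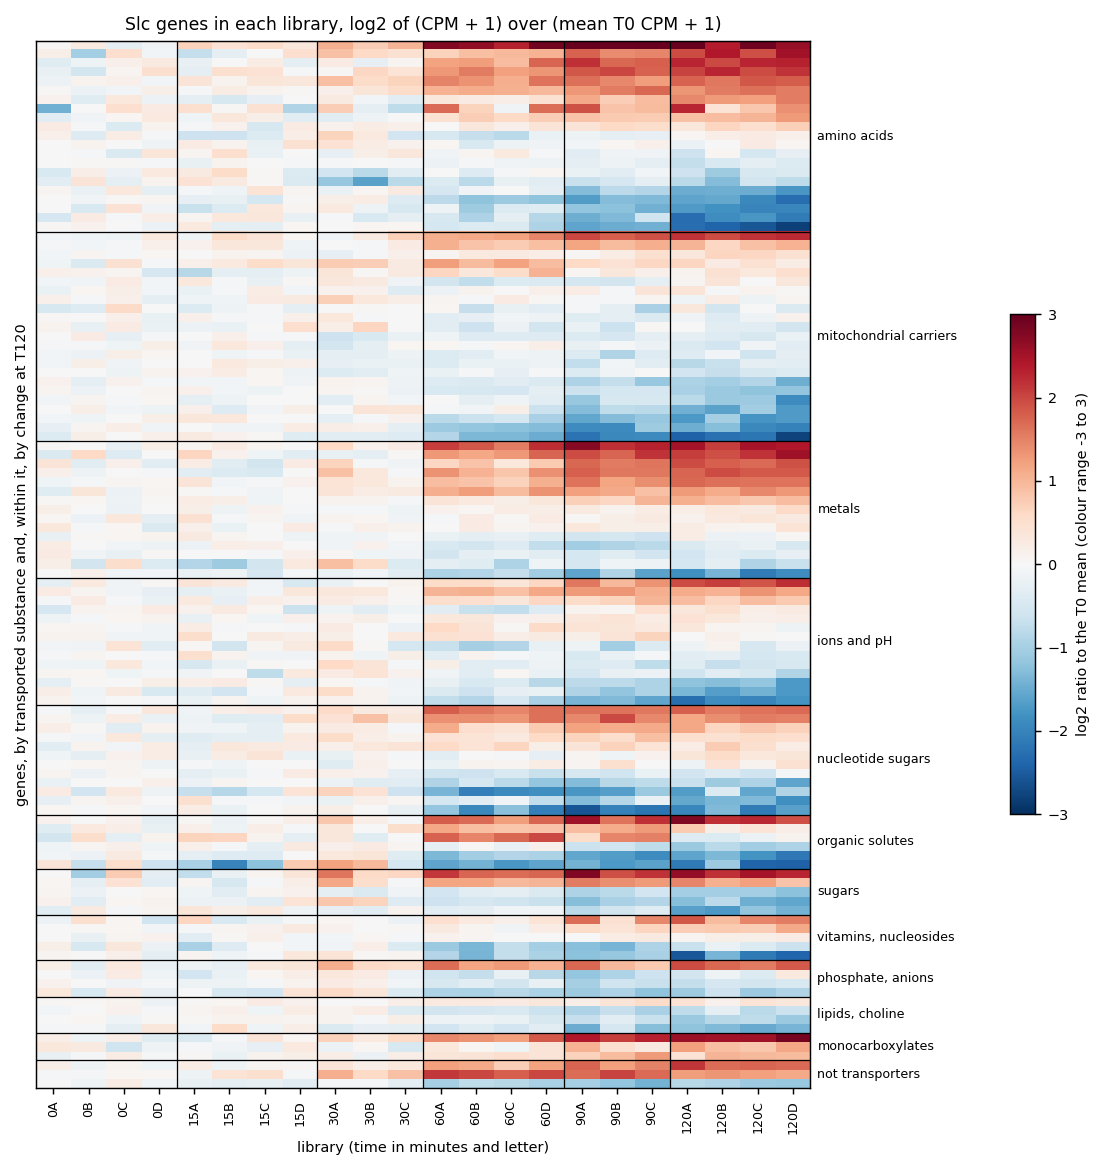
Each row is 1 of the 115 Slc genes, grouped by transported substance and sorted within it by the change at T120, and each column is 1 of the 22 libraries. Colour gives the log2 ratio of CPM + 1 to the mean T0 CPM + 1, from -3 to 3. The columns of T0, T15 and T30 are pale, and from T60 on the rows split into genes above and genes below the T0 mean.

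In the first 30 minutes little had moved. At T15 no Slc gene was called by edgeR, beside 0.67% of all listed genes (0.658% up, 0.0124% down). After subtraction there was none either, beside 0.844% up and 0.0124% down. At an unadjusted p under 0.05 there were 5, DESeq2 called 0, and the authors' deposited table has 1, a rise. At T30 4 rose and 2 fell, 5.22% of the Slc genes beside 5% of all (3.66% up, 1.34% down), where the authors' deposited table has 13 rises and 1 fall. Slc38a2, the sodium-coupled carrier SNAT2 that accumulates alanine, glutamine and other small neutral amino acids, stood at 134, 158, 109 and 122 CPM in the T0 libraries and at 275, 220 and 269 CPM in the T30 libraries. All 3 lay above all 4, with a log2 fold change of 0.96 ± 0.17 (SE; adjusted p = 0.000738). The scaffold gene Slc9a3r1 stood at 21.5 to 23.4 CPM at T0 and at 48.7, 34.4 and 42 CPM at T30, again with no overlap (0.89 ± 0.15, adjusted p = 0.000617). Slc6a8, the creatine carrier, rose by 0.73 ± 0.14. Slc43a3, which moves purine nucleobases, fell by 1.15 ± 0.23 (adjusted p = 0.00338): its T0 libraries read 299, 488, 304 and 399 CPM and its T30 libraries 169, 121 and 213. These 4 genes kept their direction after subtraction, and Slc6a8 was then at an adjusted p of 0.0543. Subtraction gave 6 rises and 1 fall at T30, beside 6.05% and 1.58% of all genes. Calls at T30 were sensitive to single libraries. Without library C of T30 8 rose, without library C of T0 or library A of T15 7 rose, and the falls went to 1 without most libraries in turn. The call of Slc25a25 (0.62 ± 0.18) or of Slc25a36 (-0.42 ± 0.12) was lost in 10 and 15 of those 22 fits, and after subtraction neither was called. Without the 5 libraries of highest background (A and B of T30, D of T15, A and C of T0), T30 kept only 1 library. Slc38a2 was then at 0.97, and calls at T30 in that fit rest on no replicate.

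Of the 21 genes of the amino acid, creatine, taurine and peptide carrier families, 10 rose and 8 fell at T120, beside 37.3% up and 39.5% down over all listed genes. Of these, 8 rises and 7 falls were also called after subtraction, while Slc15a2, Slc38a1 and Slc38a9 were not. The largest rise before subtraction was that of Slc38a2, on chromosome 15 at 96687392 to 96699730 of GRCm38, minus strand. From the T0 values above it went to 898, 832, 650 and 983 CPM at T60, 1180, 1032 and 1111 at T90 and 1106, 673, 995 and 810 at T120. No library from T60 on came near those of T0, with log2 fold changes of 2.68 ± 0.16 at T60 and 2.77 ± 0.16 at T120 (adjusted p = 7.58e-12). From T60 to T120 the difference was 0.09 ± 0.15 (adjusted p = 0.62), and the T120 libraries overlapped those of T60. Slc7a1, the carrier CAT1 for arginine, lysine and ornithine, was later. Its T0 libraries read 42, 17.9, 53.4 and 35.1 CPM, its T60 libraries 60.9, 70.3, 73.6 and 78.1, and its T120 libraries 148, 199, 144 and 218. The groups are in order without overlap, and the rise at T120 was 2.27 ± 0.26 (adjusted p = 8.16e-08). The background equalled 79.4% of its T0 level, so the size of that rise rests on the subtraction, which gave 4.09.

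The RefSeq sequences (GRCm38.p6) just before the start of these genes are printed because they are the fastest and one of the latest of the strongly rising amino acid carriers. Slc38a2 is shown at chr15:96699731-96699978 and Slc7a1 at chr5:148399905-148400154, both minus strand and 5′ to 3′. Only bases outside annotated exons are given, and capitals mark matches to the 6 motifs described below, at any of which no binding was measured.
Slc38a2: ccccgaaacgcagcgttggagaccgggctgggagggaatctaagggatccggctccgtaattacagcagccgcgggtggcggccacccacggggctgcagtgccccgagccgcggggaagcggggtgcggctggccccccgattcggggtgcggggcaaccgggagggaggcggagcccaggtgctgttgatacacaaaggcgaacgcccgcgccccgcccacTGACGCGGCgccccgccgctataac
Slc7a1: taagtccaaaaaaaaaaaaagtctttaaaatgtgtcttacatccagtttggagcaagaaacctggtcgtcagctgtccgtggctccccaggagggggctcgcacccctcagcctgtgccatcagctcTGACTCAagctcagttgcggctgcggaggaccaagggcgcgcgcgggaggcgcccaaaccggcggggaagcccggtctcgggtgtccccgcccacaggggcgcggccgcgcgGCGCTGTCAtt
In Slc38a2 the capitals are TGACGCGGC, a match to the antioxidant response element core that begins 27 bases before the RefSeq start. In Slc7a1 they are an AP-1 site, TGACTCA, beginning 123 bases before the start, and GCGCTGTCA, the antioxidant core read on the other strand, 11 bases before it.

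The exchanger pair of large neutral amino acids rose unequally. Slc7a5 (LAT1) went from 67.5 ± 21.3 CPM at T0 (n = 4) to 174 ± 17.4 at T60 (n = 4) and 295 ± 30.6 at T120 (n = 4), with T0 libraries of 57.4, 45.7, 71.5 and 95.3 CPM and T120 libraries of 276, 333, 265 and 304. Its partner Slc3a2, the heavy chain that brings LAT1 to the surface, went from 106 ± 19.5 CPM to 218 ± 28.9 at T120. The log2 fold changes at T120 were 2.12 ± 0.20 and 1.03 ± 0.14. Per kb of exon Slc3a2 stood above Slc7a5 at T0, at 30.2 against 18.2 CPM per kb, and below it at T120, at 61.8 against 79.5. Slc1a5 (ASCT2), which exchanges glutamine, went from 19.8, 23.1, 29.1 and 31.5 CPM at T0 to 131, 105, 130 and 132 at T120 (2.26 ± 0.18, adjusted p = 6.54e-10). Slc6a8 for creatine rose by 1.81 ± 0.13 (2.59 after subtraction) and Slc6a6 for taurine by 1.54 ± 0.11. Slc7a6, a relative of LAT1 that also pairs with Slc3a2, rose by 1.43 ± 0.16, of which 1.09 ± 0.16 came between T60 and T120, and by 2.13 after subtraction. The peptide carrier Slc15a2 rose by 1.42 ± 0.48 and Slc38a1, a close relative of Slc38a2, by 0.56 ± 0.15 (adjusted p = 0.00164), and neither was called after subtraction. The cystine carrier Slc7a11 is not listed in the table and was not analysed here.

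The falls of this group included members of the SLC38 and SLC7 families, which also held rises. Slc38a6, an orphan relative of Slc38a2, showed the deepest fall of any Slc gene at T120 before subtraction. It read 43.7, 47.1, 42.2 and 37.9 CPM at T0 and 29.5, 31.8, 31.4 and 22 at T60. At T90 it read 13.5, 14.6 and 15.2 and at T120 8, 7.2, 6.4 and 5.3. From T60 on each group lies below the one before it without overlap, and the log2 fold change was -2.68 ± 0.16 (adjusted p = 1.04e-11). After subtraction the fall was called at T120, but not at T60 or at T90 (-1.19, adjusted p = 0.302). Slc43a1, the facilitated carrier LAT3 for branched-chain amino acids, fell by 2.07 ± 0.22, and Slc38a3, a carrier of glutamine, by 1.97 ± 0.25. Slc7a2, the second arginine carrier (CAT2), read 129, 106, 153 and 102 CPM at T0, 86.4, 114, 121 and 101 at T60 and 42.5, 43.4, 42.7 and 35.9 at T120. Its T60 libraries overlapped those of T0, at -0.21 with an adjusted p of 0.256, and by T120 Slc7a2 had fallen by 1.57 ± 0.16. Per kb of exon, Slc7a2 stood at 13.4 and Slc7a1 at 3.22 CPM per kb at T0, and at 4.5 and 15.4 at T120, so their order was reversed. Slc7a8 (LAT2) fell by 0.63 ± 0.19 and Slc43a3 by 0.83 ± 0.21. At T0 these were the highest of all 115 genes per kb of exon, at 76.3 and 83.5 CPM per kb. Slc38a9, the lysosomal arginine sensor of mTORC1, fell by 1.91 ± 0.18 from a T0 level that the background alone equals (102%). After subtraction its value was -0.46 (adjusted p = 0.796).

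A shorter stretch is printed for Slc38a6, as the deepest fall at T120 before subtraction, at chr12:73286711-73286778 of GRCm38.p6 on the plus strand. It lies between the first exon of Slc38a6 and that of Trmt5 on the other strand.
Slc38a6: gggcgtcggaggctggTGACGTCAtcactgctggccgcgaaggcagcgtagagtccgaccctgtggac
The capitals are the cyclic AMP response element TGACGTCA, which begins 121 bases before the RefSeq start.

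Of 5 sugar carriers 2 rose and 3 fell at T120, beside 37.3% up and 39.5% down over all listed genes. After subtraction 2 of each were called, beside 30.4% up and 25.9% down. Slc2a1 (GLUT1), the basal glucose carrier of most cells, read 12.6, 5.6, 21.8 and 10 CPM at T0 and 83.3, 61, 74.7 and 65.3 at T120. The groups are far apart, at 2.56 ± 0.32 (adjusted p = 3.76e-07), and the background equalled 71.7% of the T0 level, with 3.91 after subtraction. Slc2a3 (GLUT3), a high-affinity glucose carrier, rose by 1.22 ± 0.22, with 80% background at T0 and 3.14 after subtraction. Slc2a12 (GLUT12) fell by 1.5 ± 0.16, with 58.7, 90.2, 71.5 and 80 CPM at T0, 59.2, 62, 70.8 and 71.4 at T60 and 23.7, 22.2, 32.7 and 27.3 at T120. Its T60 libraries lay inside the T0 range and its T120 libraries below it, with no overlap between T60 and T120. After subtraction Slc2a12 was called as fallen at T60 too. Slc50a1 and Slc45a4 fell by 1.14 ± 0.14 and 1.33 ± 0.24, and Slc45a4 was at 0.09 after subtraction. Slc2a4, the insulin-regulated glucose carrier of muscle fibres, is not listed and was not analysed here.

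All 3 genes of the monocarboxylate family rose at T120, beside 37.3% of all listed genes. All 3 were called after subtraction, beside 30.4% of all. Slc16a1 (MCT1), which carries lactate and pyruvate with a proton, rose most after Slc38a2 before subtraction, though after it Slc7a1, Slc2a1 and others had larger values: 34.2, 26.8, 34.4 and 22.9 CPM at T0, 82.1, 77, 71.2 and 108 at T60, 160, 129 and 151 at T90 and 184, 174, 176 and 223 at T120. The libraries of T30, at 48.7, 36.2 and 45.6 CPM, and of T60, T90 and T120 follow each other upwards without overlap, and the log2 fold change was 1.53 ± 0.17 at T60 and 2.69 ± 0.18 at T120 (adjusted p = 3.24e-11). Slc16a10, which carries aromatic amino acids and not lactate, rose by 1.06 ± 0.21 (2.41 after subtraction). Slc16a1 is shown at chr3:104638414-104638663 of GRCm38.p6, plus strand, because it climbed at every step from T30 on.
Slc16a1: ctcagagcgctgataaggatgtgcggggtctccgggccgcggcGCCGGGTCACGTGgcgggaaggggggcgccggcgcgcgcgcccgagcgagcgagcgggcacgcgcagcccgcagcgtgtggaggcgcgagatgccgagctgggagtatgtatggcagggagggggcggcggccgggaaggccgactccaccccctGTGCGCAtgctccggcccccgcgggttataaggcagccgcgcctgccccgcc
The first run of capitals joins GCCGGGTCA, the antioxidant core on the other strand, and the E-box CACGTG, which overlap. They begin 207 and 200 bases before the start. The second, GTGCGCA, is the metal response element core on the other strand, 52 bases before it.

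**Figure D3:**
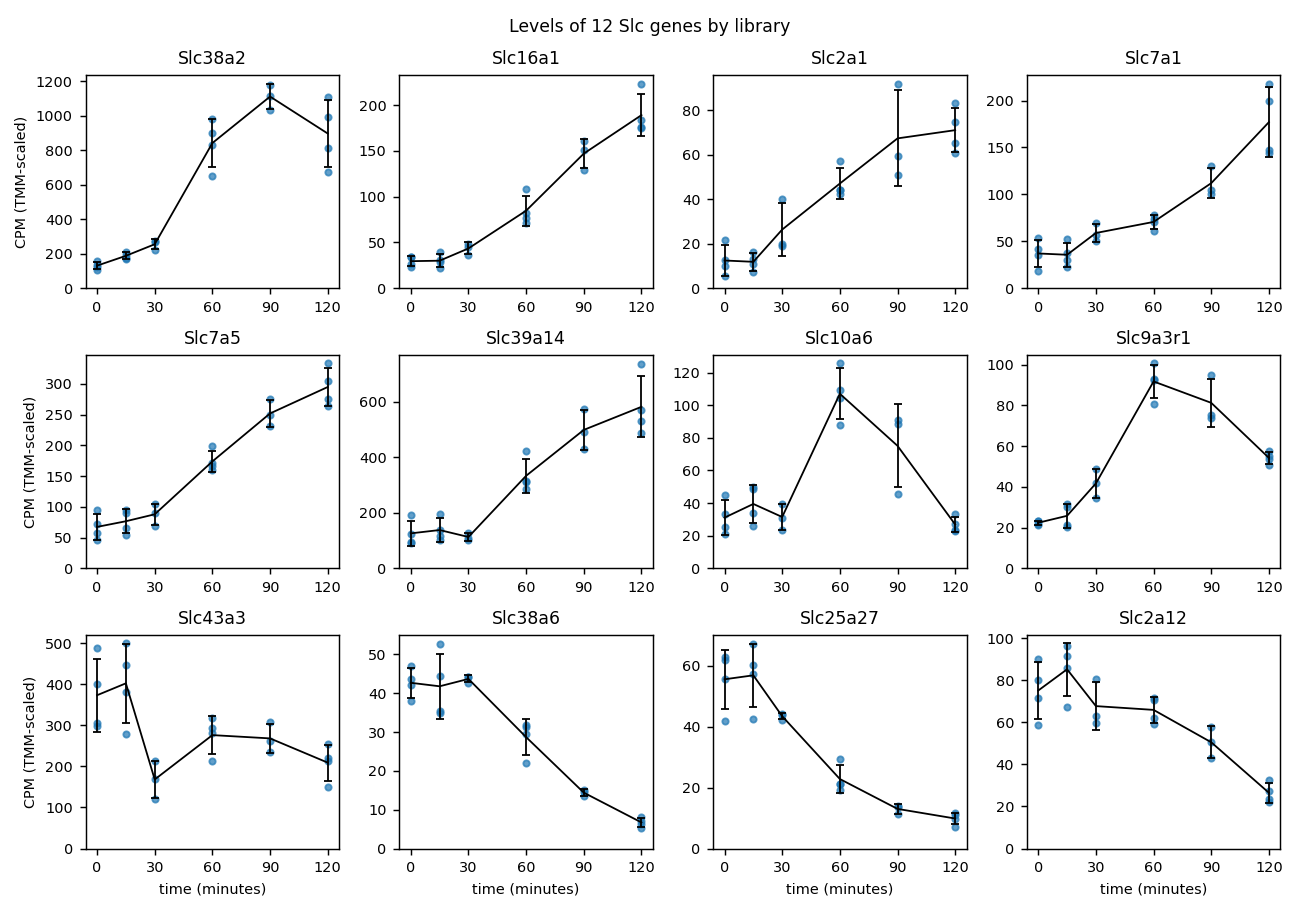
CPM of 12 Slc genes against time in minutes. Points are libraries, and lines with bars are the mean and SD of each time point (n = 4, or 3 at T30 and T90). Slc38a2, Slc16a1 and Slc7a1 climb, Slc10a6 and Slc9a3r1 peak at T60, and Slc38a6 and Slc25a27 fall.

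Of 15 metal carriers 8 rose and 3 fell at T120, beside 37.3% up and 39.5% down over all listed genes. Of these, 7 rises and 1 fall were also called after subtraction. Slc41a1, a magnesium carrier of the plasma membrane, read 82, 79.6, 68.2 and 91 CPM at T0, 342, 294, 234 and 377 at T60 and 459, 339, 451 and 429 at T120 (2.38 ± 0.16, adjusted p = 3.24e-11). Slc39a14 (ZIP14), which brings in zinc, manganese and iron, went from 126 ± 46 CPM at T0 to 581 ± 109 at T120 (2.20 ± 0.23). No T120 library of either gene came near a T0 library. Slc11a2 (DMT1), an importer of ferrous iron, rose by 1.90 ± 0.21 and Slc31a1 (CTR1), the copper importer, by 1.90 ± 0.17. The background equalled 68.2% and 56.4% of their T0 levels, and subtraction gave 3.14 and 2.73. Among zinc importers Slc39a6 rose by 1.69 ± 0.12 and Slc39a1 by 1.32 ± 0.14, Slc39a10 was at 0.23 ± 0.13 (adjusted p = 0.128), and Slc39a13 fell by 1.88 ± 0.18. Of the SLC30 family, which moves zinc out of the cytosol, Slc30a4 rose by 0.94 ± 0.10 and Slc30a5 by 0.35 ± 0.10, the latter not called after subtraction (0.82, adjusted p = 0.283). Slc30a1, the zinc exporter of the plasma membrane, was at -0.35 ± 0.14 (adjusted p = 0.0258) and turned to 0.41 after subtraction. Its call was lost without library A or B of T0 or library A or D of T120, at adjusted p of 0.0577 to 0.108. Slc39a10 was called without library A of T0 (0.36, adjusted p = 0.0194). Slc40a1, ferroportin, the iron exporter, was at 12.2 ± 2.3 CPM at T120 against 18.8 ± 7.03 at T0 (-0.61 ± 0.32, adjusted p = 0.0896). The background exceeded its T0 level (122%), so no T0 level can be given for it, and its call as higher after subtraction (6.22) depends on the prior count.

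Of 23 carriers of the SLC25 family 12 fell and 4 rose at T120, beside 39.5% down and 37.3% up over all listed genes. After subtraction 8 of the falls and all 4 rises were called, beside 25.9% down and 30.4% up. The ADP/ATP carriers moved apart. Slc25a5 (ANT2), the form of growing cells, read 54.6, 52.7, 52 and 71.5 CPM at T0 and 262, 225, 263 and 277 at T120, a rise of 2.15 ± 0.17 (adjusted p = 3.25e-10). Slc25a4 (ANT1), the form of heart and muscle, read 155, 156, 144 and 179 CPM at T0 and 118, 106, 149 and 126 at T120, where 1 library lay inside the T0 range (-0.35 ± 0.14, adjusted p = 0.026). Per kb of exon Slc25a4 stood above Slc25a5 at T0, at 67.4 against 35 CPM per kb, and at T120 the order was reversed, at 53 against 156. Slc25a5 has 1 annotated pseudogene by name, and how reads shared with it were counted is not given. The phosphate carrier Slc25a3 rose by 0.91 ± 0.12 and the glutathione carrier Slc25a39 by 0.52 ± 0.11.

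The deepest fall of the SLC25 family was Slc25a27 (UCP4), at 41.8, 62.8, 55.6 and 61.8 CPM at T0, 29.5, 21.2, 21.3 and 19.2 at T60 and 9.6, 10.9, 11.6 and 7.2 at T120. The 3 groups do not overlap (-2.50 ± 0.18, adjusted p = 1.29e-10), and the background was 18.1% of the T0 level. Slc25a46, an outer membrane protein of mitochondrial dynamics, fell by 1.56 ± 0.17. The 4 calcium-regulated ATP-magnesium and aspartate carriers listed here did not move alike. Slc25a24 fell by 1.49 ± 0.20, Slc25a23 by 1.15 ± 0.10 and Slc25a12 by 1.10 ± 0.13, the last not called after subtraction (-0.89, adjusted p = 0.186), whereas Slc25a25 was up by 1.12 ± 0.16 at T60 and 0.42 ± 0.16 at T120 (1.23 after subtraction). The call of Slc25a25 at T120 (adjusted p = 0.0238) was lost without library A, B or D of T0 or library A or C of T120, at adjusted p of 0.0501 to 0.0714. Both mitoferrins, Slc25a37 and Slc25a28, which carry iron for haem and clusters, were uncalled at T120, at 0.15 ± 0.15 and -0.11 ± 0.14. Slc25a17 (-0.56 ± 0.12) belongs to the family but sits in peroxisomes.

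**Figure D4:**
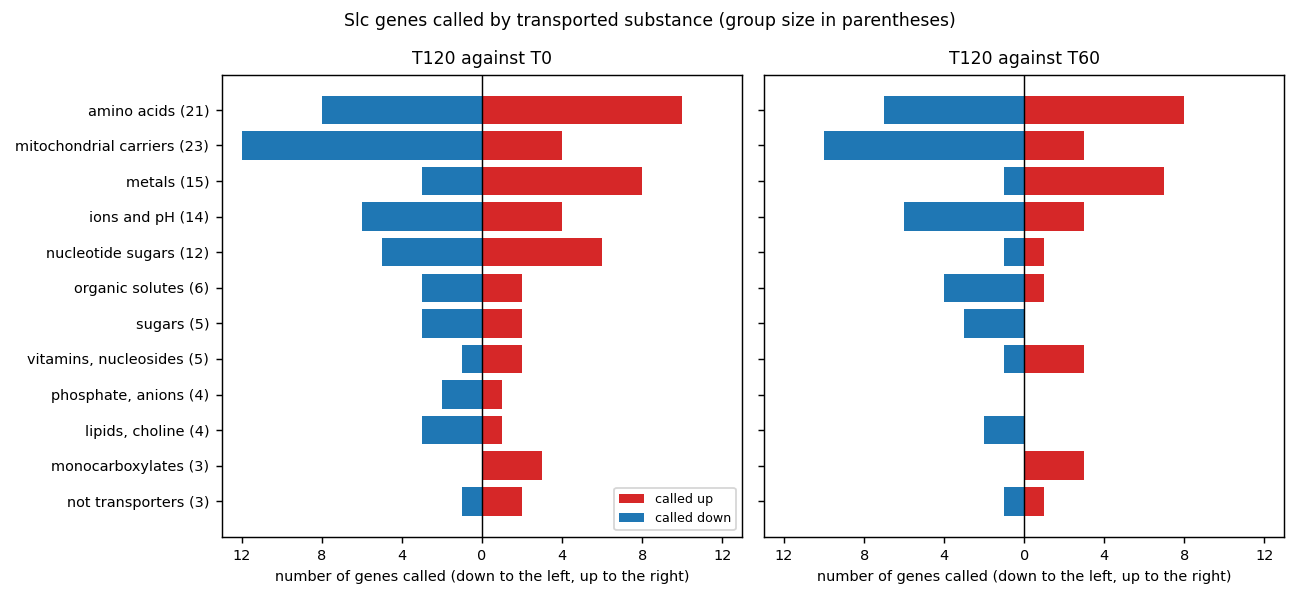
Number of Slc genes called up (right) and down (left) in each group by transported substance, with the group size in parentheses. At T120 against T0 metal carriers had 8 up and 3 down and SLC25 carriers 4 up and 12 down, before subtraction of the background. Over all listed genes 37.3% were up and 39.5% down.

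Of 14 carriers of ions and acid, 4 rose and 6 fell at T120, beside 37.3% up and 39.5% down over all listed genes. After subtraction 3 of each were called, beside 30.4% up and 25.9% down. Slc4a7 (NBCn1), which brings in sodium with bicarbonate, had the largest rise of the second hour. It read 91.1, 90.8, 80.5 and 96.2 CPM at T60 and 243, 265, 234 and 294 at T120 (1.53 ± 0.16, adjusted p = 1.62e-07), after 62.1 ± 11 CPM at T0. Slc12a4 (KCC1), a potassium-chloride exporter, rose by 1.20 ± 0.13. Slc12a2 (NKCC1), which brings in sodium, potassium and chloride, rose by 0.84 ± 0.13, and was not called after subtraction. Slc9a8, a sodium-proton exchanger of the Golgi, read 63.8, 56, 60.3 and 58.7 CPM at T0 and 11.6, 15.8, 14.3 and 16.4 at T120 (-2.03 ± 0.13), and the chloride-bicarbonate exchanger Slc4a3 fell by 1.58 ± 0.19. Slc8b1, the sodium-calcium exchanger of mitochondria, fell at T60 (-0.54 ± 0.18) and rose from T60 to T120 (0.86 ± 0.18), ending at 0.33 ± 0.18 against T0 (adjusted p = 0.098).

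Among 12 members of the SLC35 family, which moves nucleotide sugars and related solutes into the Golgi and endoplasmic reticulum, 6 rose and 5 fell at T120. Of these, 4 and 2 were called after subtraction. Over all listed genes 37.3% rose and 39.5% fell, or 30.4% and 25.9% after subtraction. Slc35e1, an orphan of the family, rose by 1.67 ± 0.13 at T60 and stood at 86.5 ± 9.07 CPM at T60 and 87.8 ± 7.09 at T120 (n = 4 each), a log2 difference of 0.02 ± 0.12 (adjusted p = 0.886). Slc35e4 rose by 1.56 ± 0.22 from a T0 level that the background exceeds (114%). Slc35a1, the CMP-sialic acid carrier, fell by 1.59 ± 0.22, and Slc35b4, for UDP-xylose and UDP-N-acetylglucosamine, by 1.80 ± 0.21. Slc35b4 also shares 10% of its exon bases with an antisense gene. Slc35f6 fell by 1.11 ± 0.35 and was at 0.49 after subtraction. Slc35b1, the ATP carrier of the endoplasmic reticulum, was at 0.23 ± 0.15 (adjusted p = 0.157), and was called without library A of T120 (0.39, adjusted p = 0.022).

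In the smaller groups, Slc5a3 (SMIT1), which takes up myo-inositol with sodium and is known for its response to osmotic stress, read 49.9, 45, 49.7 and 37 CPM at T0, 164, 150, 109 and 154 at T60 and 316, 211, 220 and 177 at T120 (2.35 ± 0.22, adjusted p = 3.62e-09, and 3.37 after subtraction). It shares 1.46% of its exon bases with Mrps6 on the same strand. Slc20a1 (PiT-1), the sodium-phosphate carrier of the surface, rose by 1.84 ± 0.22 (2.9 after subtraction), and its relative Slc20a2 was at -0.16 ± 0.21 (adjusted p = 0.475). Of the vitamin and nucleoside carriers, the thiamine carrier Slc19a2 rose by 1.58 ± 0.29 (3.19 after subtraction) and the ascorbate carrier Slc23a2 by 0.88 ± 0.11. The lysosomal nucleoside carrier Slc29a3 fell by 2.24 ± 0.24, with an adjusted p of 0.0569 after subtraction, and Slc29a1 (ENT1), the nucleoside carrier of the surface, was at 0.17 ± 0.11. Of 4 choline and fatty acid carriers, Slc44a1 for choline rose by 0.34 ± 0.09, while Slc44a2, Slc27a1 and Slc27a4 fell by 0.98 ± 0.12, 1.4 ± 0.19 and 0.65 ± 0.15, and 1 of these 3 falls was called after subtraction. Slc22a15 is the case where the background decides the sign. Its T0 libraries read 42.2, 19.5, 46.9 and 20.6 CPM and its T60 libraries 10.1, 11.4, 8.9 and 10.2, a fall of 1.65 ± 0.50 that turned to 7.07 after subtraction. Since its T0 level was then near 0, that value depends on the prior count and is no measure of size.

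A few Slc genes rose by T60 and fell again by T120. Of the 4 given here, only Slc10a6 was no longer called above T0 at T120 before subtraction. Slc10a6 (SOAT), which takes up sulphated steroids, read 20.9, 44.9, 25.1 and 33.5 CPM at T0, 109, 87.8, 105 and 126 at T60, 45.8, 88.3 and 91.2 at T90 and 23.6, 23, 27.4 and 33.4 at T120. The T60 libraries lay above those of T0 and T120 and overlapped those of T90, and the T120 libraries lay inside the T0 range, with 1.77 ± 0.26 at T60 against T0 (adjusted p = 6.9e-06) and -1.99 ± 0.25 at T120 against T60 (adjusted p = 1.61e-06). Slc9a3r1 rose by 2.03 ± 0.14 at T60 and fell by 0.76 ± 0.13 from T60 to T120, from 101, 92.9, 80.7 and 92.3 CPM to 55, 57.7, 53.5 and 50.7. At T120 it was still above T0, by 1.27 ± 0.14. Slc25a25, an ATP-magnesium carrier, and Slc22a5 (OCTN2), the carnitine carrier, fell by 0.70 ± 0.16 and 0.56 ± 0.17 from T60 to T120. At T120 both were still above T0, by 0.42 ± 0.16 and 0.44 ± 0.18. The rise of Slc22a5 was not called after subtraction at T60 (1.67, adjusted p = 0.132) or at T120 (1.11, adjusted p = 0.253). All 4 falls from T60 to T120 were called when only T60, T90 and T120 were fitted with the background subtracted.

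Between T30 and T60 30 Slc genes rose and 34 fell, beside 51% of all listed genes (26.5% up, 24.5% down). After subtraction 25 rose and 4 fell, beside 14.8% and 11.5% of all, and these include 18 of the rises and 2 of the falls. The 5 largest rises were Slc10a6 (1.77 ± 0.28), Slc38a2 (1.72 ± 0.17), Slc41a1 (1.61 ± 0.17), Slc39a14 (1.55 ± 0.25) and Slc35e1 (1.30 ± 0.14), and each of these 5 was called after subtraction too. The falls largest in size included Slc22a15, Slc35f6, Slc35b4 and Slc10a7, at -2.40, -2.16, -1.59 and -1.22, and none of these 4 was called after subtraction. Without the 5 libraries of highest background T30 kept only library C, so calls of this step in that fit rest on no replicate at T30.

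Between T60 and T120 30 Slc genes rose and 36 fell, beside 60.4% of all listed genes (28.4% up, 32% down). With all libraries fitted after subtraction 14 rose and 21 fell, beside 16.6% and 16.5% of all. This step compares no library before T60, but its fit took the spread from all libraries. The background was a median of 1.44% of the Slc genes' level at T60 and 6.68% at T120, and at most 13.5% and 76.1%. With T60, T90 and T120 fitted alone and the background subtracted, 32 rose and 34 fell, beside 31.8% and 29.7% of all. These include 29 of the 30 rises and 33 of the 36 falls. Rises were led by Slc4a7, Slc7a1 (1.32 ± 0.24), Slc11a2 (1.21 ± 0.20), Slc19a2 (1.20 ± 0.28) and Slc16a1 (1.16 ± 0.16). Falls were led by Slc38a6 (-2.10 ± 0.16), Slc10a6, Slc38a3 (-1.51 ± 0.24), Slc43a1 (-1.44 ± 0.21) and Slc25a24 (-1.37 ± 0.19). By group, metal carriers had 7 rises and 1 fall, the SLC25 family 3 rises and 10 falls, amino acid carriers 8 and 7, sugar carriers 0 and 3, and monocarboxylate carriers 3 and 0. Slc7a1 and Slc7a2 moved in opposite directions in this step as well, at 1.32 ± 0.24 and -1.36 ± 0.16. All 5 listed endothelial markers also rose from T60 to T120, and 6 of the 10 satellite cell markers fell. Whether a share of these Slc changes moved with them was not tested.

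Per kb of exon the 5 highest Slc genes at T0 were Slc43a3 at 83.5, Slc7a8 at 76.3, Slc25a4 at 67.4, Slc25a5 at 35 and Slc3a2 at 30.2 CPM per kb. At T120 they were Slc25a5 at 156, Slc38a2 at 101, Slc41a1 at 85.4, Slc7a5 at 79.5 and Slc3a2 at 61.8. Only Slc25a5 and Slc3a2 are among the 5 at both times. The 12 Slc genes not called at any time were Slc25a22, Slc25a37, Slc25a38, Slc29a1, Slc30a7, Slc35b1, Slc35b2, Slc36a4, Slc39a10, Slc40a1, Slc43a2 and Slc4a4, at adjusted p from 0.058 to 0.632. Slc43a2 (LAT4), an amino acid carrier, stood at 224 ± 50.4 CPM at T0 and 181 ± 39.9 at T120, and was called at T120 without library C of T0 (-0.43) or library B of T120 (-0.47), and with all libraries after subtraction (-0.49, adjusted p = 0.0349). Some members share exon bases with a neighbour, and whether the counting used strand is not given: Slc4a2 shares 13.7% with Fastk, Slc2a12 9.61% with Tbpl1 and Slc39a13 4.42% with Psmc3, each on the opposite strand. That the 12 uncalled genes missed the threshold does not show that their levels were constant.

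Genes that work with these carriers are given from 6 lists, with counts at T120 to be read beside 37.3% up and 39.5% down over all listed genes, or 30.4% and 25.9% after subtraction. Of 17 listed partners and pumps, 9 rose and 4 fell (7 and 5 after subtraction). Txnip, which removes glucose carriers from the surface, fell by 2.67 ± 0.35. Of 16 genes of amino acid sensing and ATF4 targets, 9 rose and 2 fell (9 and 2), and Atf4, the transcription factor known to act on Slc7a1, Slc7a5, Slc3a2 and Slc38a2 genes, rose by 1.53 ± 0.14 at T30 and 2.92 ± 0.14 at T120. Of 17 genes of glucose and lactate use 12 rose and 3 fell (10 and 2 after subtraction), among them Hk2, which traps glucose (4.21 ± 0.31), and Ldha (0.96 ± 0.13). Of the kinases that restrain pyruvate oxidation, Pdk2 fell by 2.79 ± 0.28 and Pdk4 rose by 2.02 ± 0.19. Of 14 genes of NRF2 and glutathione, 10 rose and 1 fell (12 and 1 after subtraction). Of 11 genes of metal handling 7 rose and 2 fell (6 and 0 after subtraction), and the metallothioneins Mt1 and Mt2, which bind zinc and copper, rose by 3.52 ± 0.25 and 3.07 ± 0.19. Of 14 genes of mitochondrial import and dynamics 5 rose and 5 fell (3 and 4 after subtraction).

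RefSeq gave the 250 bases before the start of 85 of the 115 Slc genes, with the first listed start taken where there were several (20 genes). They were searched on both strands for 6 motifs. TGACNNNGC, the antioxidant response element core, was found in 21.2% of them and in 10.1% of all 27025 promoters, and TGCGCNC, the metal response element core, in 22.4% and 12.6%. Of the 33 with a promoter that rose at T120, 11 held the first and 12 the second, and of the 36 that fell, 5 and 6. These shares were not taken for all listed genes that rose or fell, and the 27025 promoters are not limited to listed genes. The counts are therefore not shown to be particular to Slc genes. The E-box CACGTG was in 8.24% of Slc promoters and 6.05% of all, the ATF4 composite core TGATGNAA in 2.35% and 3.53%, the cyclic AMP response element TGACGTCA in 2.35% and 1.62%, and the AP-1 site TGAGTCA in 1.18% and 4.43%. Base composition was not matched, and motifs can overlap, as in Slc16a1. A match is a description and no measured site.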

How the data were processed

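Bulk RNA was extracted with an FFPE kit from fixed cells and sequenced as 65-base single reads after a stranded pico-input library preparation, per the labels' protocols. The authors deposited whole-number counts per gene and library. The submitters' processing notes name cutadapt 1.11, featureCounts 1.4.5-p3, DESeq2 1.18.1 and mm10, and the aligner, annotation and strand setting are not given. The listed genes have a mean normalized count of at least 98.36 in the authors' deposited table, so genes of low level were left out before deposit. That table also holds, per the file headers, log2 fold changes and adjusted p-values between time points, and a score, which is the deposited count after scaling each library by its own size factor, as whole numbers.

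Here the counts of all 22 libraries entered 1 edgeR 4.0.16 quasi-likelihood fit (R 4.3.3, TMM scaling, time point as the factor). P-values were adjusted by the Benjamini-Hochberg method over all 8059 genes, with a threshold of 0.05. The SE is the log2 fold change divided by the root of F. The fit was tested on simulated data. Exon lengths came from GENCODE M21 (GRCm38), which matched 8049 identifiers and all 115 Slc genes. Background was the mean count per kb over 124 kb of exon of 6 long genes, a list completed after the data were seen. It was subtracted as density times exon length, with a floor at 0.

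Slc genes were named by rule: those called by T30, the 8 largest changes each way at T60, T90 and T120, the 5 largest each way from T30 to T60 and T60 to T120, the highest per kb in each group, and a list of known carriers. Others were named for their role after their values were seen, and some genes that the rule names are not reported here. The members and lists were chosen with earlier results of these data known. Alternatives were DESeq2 1.42.0, the authors' size factors, filters, subtraction, a block by library letter and each library left out. Leaving out the 5 libraries of highest background, and fitting T60 to T120 alone, were added after seeing the data.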

Additional observations from a re-analysis of the deposited data

Results flagged for a closer look

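Among 228 groups of 4 libraries, 8 had a highest or lowest library set far apart from the others (a gap above Dixon's 95% critical value). Chance flags about 1 in 20 groups. At T60 library A was high for Slc25a36, at 79.7 CPM with the others at 66.6 to 67.3, and for Slc2a1, at 57.4 CPM with the others at 42.2 to 44.4. At T120 library B was high for Slc22a15, at 14.6 CPM with the others at 5.15 to 6.73, and low for Slc1a5, at 105 CPM with the others at 130 to 132. The same library B had a background density of 1.18 CPM per kb with the others of T120 at 0.1 to 0.239. At T15 library D had 3.85 CPM per kb with the others at 0.548 to 0.881. At T0 library D was high for Slc25a5, at 71.5 CPM with the others at 52 to 54.6. At T120 library D was low for Slc7a2, at 35.9 CPM with the others at 42.5 to 43.4.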

How the results depend on the processing

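With the background subtracted, falls went from 35 to 12 at T60, from 46 to 22 at T90, from 47 to 27 at T120, from 2 to 1 at T30 and from 34 to 4 between T30 and T60. Between T60 and T120 it left 14 rises and 21 falls of 30 and 36, where the spread fitted over all libraries also grew (common coefficient of variation 0.376 against 0.192). Subtraction gave 68 Slc genes called at any time, where 103 were called before it. It reversed Slc22a15 at T60 (7.07), T90 (6.93), T120 (5.31) and from T30 to T60 (2.91), Slc38a9 at T60 (1.13) and T90 (0.6), Slc10a7 at T60 (0) and from T30 to T60 (1.33), Slc35f6 at T90 (0.18) and from T30 to T60 (1.44), Slc35b4 from T30 to T60 (0.07), Slc30a1 at T120 (0.41) and Slc40a1 at T120 (6.22). Where the subtracted T0 level is near 0 such a value depends on the prior count. At T30 the 4 rises became 8 with DESeq2 and 7 with the authors' size factors, which gave 1 fall. Without the 5 libraries of highest background T30 kept only library C, so counts of calls against T30 or at T30 are not given for that fit. The cause of these differences between settings was not tested.

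Leaving out 1 library at a time gave 3 to 8 rises and 1 to 2 falls at T30, and Slc10a6 at T120 ranged from -0.37 to 0.03. The other counts stayed within 1.5 times. With a replicate block by library letter, T30 had 4 rises and 1 fall, and T120 had 45 and 46. Same-letter libraries had a mean correlation of deviations of 0.05 over 51 pairs (-0.57 to 0.47). Libraries of different letters had -0.02 over 150 pairs (-0.74 to 0.71). Above 0.1 were 26 of the 51 and 45 of the 150 pairs, and whether the letters pair libraries was not settled.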
